A study of Homo sapiens with 3 samples.

Results

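The genes described here move ions across the cell membrane in the stratified epithelium formed by SV40-immortalized human corneal epithelial (iHCE) cells. They are the solute carriers of families SLC4, SLC8, SLC9, SLC12, SLC20, SLC24, SLC26 and SLC34, the beta subunits of the sodium-potassium ATPase (ATP1B) and the plasma membrane calcium ATPases (ATP2B). They were chosen by gene symbol alone, from probe sets annotated to exactly 1 gene. This gave 42 genes, with 72 probe sets, of 11963 genes and 19071 such probe sets on the array. Every probe set was kept. The alpha subunits of the sodium-potassium ATPase (ATP1A) had no probe set under this rule and were not analysed here.

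The cell line carries the large T antigen of the virus. Cells at passages 22 to 23 were grown on collagen-coated filters for 7 days under medium, then lifted to an air-liquid interface, and RNA was taken once the layer resisted more than 300 Ω · cm2. There was 1 group of 3 independent culture batches, each on 1 HG-U133A array, and the cultures numbered 1, 2 and 3 had resistances of 489, 439 and 468 Ω · cm2. No untreated, tissue or treated group was analysed here, so no contrast between conditions was made.

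The ion gradients of an epithelium start with the sodium-potassium ATPase, which expels sodium and takes up potassium. Cotransporters and exchangers then use the sodium gradient to bring in chloride, phosphate or bicarbonate and to expel protons or calcium. In the corneal epithelium these steps are known for the secretion of chloride toward the tears and for the control of cell pH and volume.

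The values were log2 expression levels from the RMA procedure of the authors, which removes background, puts the arrays on a common scale and joins the probes of each probe set into 1 value. A gene counted as above background if all 3 arrays gave it a value over the 95th percentile of a panel of 57 measured genes of other tissues. These thresholds were 7.05, 6.92 and 6.81 in cultures 1, 2 and 3. A gene was read at its brightest probe set unless another is named. Probe sets bind with different strength, and values of different genes were not compared as amounts. With 3 arrays each mean is known only to within the spread of 3 cultures. In such whole-culture RNA, fewer cells that express a gene and less of its RNA per cell cannot be told apart.

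The array of culture 1 stood somewhat apart. It differed by 1 log2 unit or more from culture 2 at 185 probe sets and from culture 3 at 222, against 13 between cultures 2 and 3. The 6 genes listed as markers of simple epithelium were all above background, among them *KRT18* (12.58 ± 0.20, SD, n = 3) and *KRT7* (10.42 ± 0.60). The list also held *CDH1* (11.02 ± 0.08), which is not particular to simple epithelium. None of the 6 corneal markers was above background on all arrays, with *KRT3* at 4.86 ± 0.10 and *KRT12* at 5.26 ± 0.16. *PAX6*, a transcription factor of the eye, read 7.11, 6.55 and 6.83 and exceeded the threshold in cultures 1 and 3. The labelled origin was therefore not visible in its defining keratins. Of the 12 measured markers of keratocytes, melanocytes, leukocytes and vascular endothelium none was above background on all arrays.

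Of the 42 ion transport genes 9, or 21.4%, were above background in all 3 cultures, against 47.1% of all genes. They were *ATP1B1* and *ATP1B3*, *ATP2B4*, *SLC20A1*, *SLC12A2*, *SLC12A4*, *SLC12A7*, *SLC12A9* and *SLC4A2*. These genes lay in 5 of the 10 families. A further 5 genes exceeded the threshold on 1 or 2 arrays (7.07% of all genes did so), and 28 exceeded it on none. By probe set, 10 of 72 were above background (13.9%, against 38.4% of all probe sets). The median level of the 42 genes was 6.04, and that of all genes was 6.98. When the mean was instead tested against the threshold, taken as fixed, by limma (one-sided), the same 9 genes passed, with adjusted p from 5.07e-12 to 0.044 (46.1% of all genes passed). With the highest panel gene as threshold 7 of the 42 (16.7%, against 39.8% of all genes) remained, without *SLC12A4* and *SLC12A9*.

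**Figure D1:**
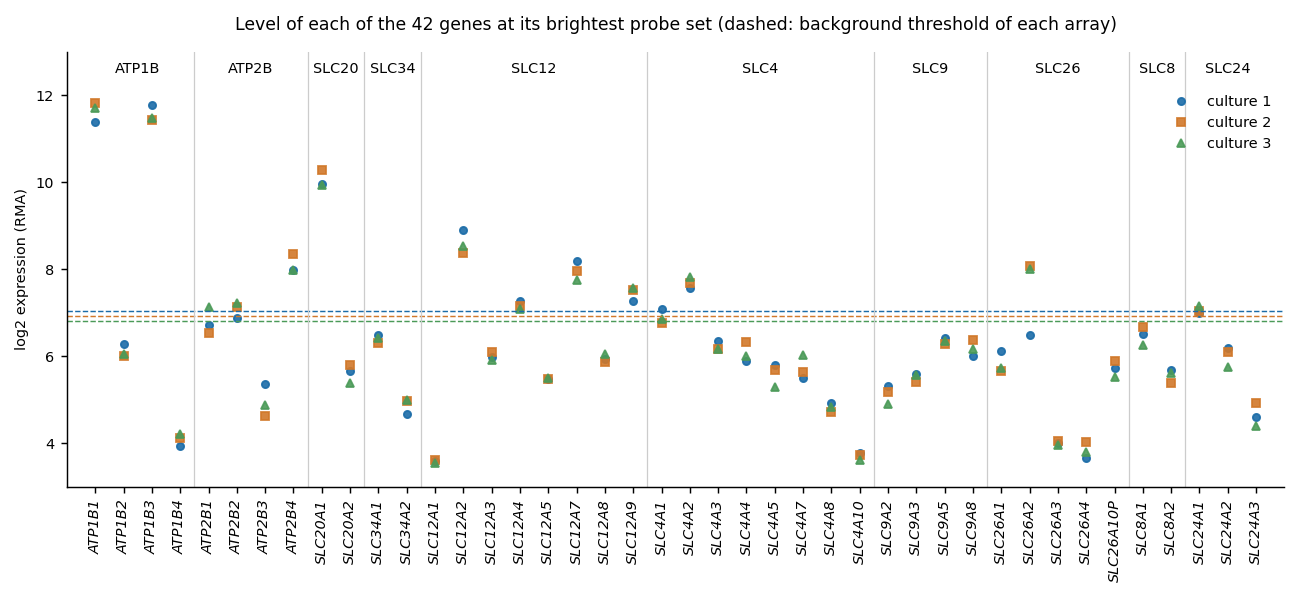
Log2 expression (vertical axis) of each of the 42 genes at its brightest probe set, by family, with 1 point per culture and the background threshold of each array as a dashed line of the same colour. The 9 genes with all 3 points above the lines include *ATP1B1*, *ATP1B3* and *SLC20A1*, and no gene of the SLC8, SLC9, SLC24, SLC26 or SLC34 families is among them.

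The sodium-potassium ATPase was represented by its beta subunits, glycoproteins that the catalytic alpha subunit needs to fold and reach the membrane. *ATP1B1*, the common epithelial form, read 11.38, 11.82 and 11.70 in cultures 1, 2 and 3 (mean 11.63 ± 0.23, SD, n = 3). *ATP1B3*, another widely expressed form, read 11.77, 11.43 and 11.47 (11.55 ± 0.19). Both lay more than 4 log2 units above the threshold on each array. *ATP1B2*, known from glia and also named adhesion molecule on glia, read 6.28, 6.01 and 6.06. *ATP1B4*, known from muscle and placed here by its symbol alone, not by a role in the pump, read 3.93, 4.13 and 4.21. Neither exceeded the threshold on any array. The forms above background differed between the cultures in opposite directions: culture 1 was the lowest for *ATP1B1* and the highest for *ATP1B3*. As each culture has a single array, these differences between cultures could not be tested.

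The 4 beta subunit genes also differed in the sequence before their RefSeq start sites. They were picked for display after the values were seen, because the pair above background and the pair below it fall apart in CpG content. Each line gives the 250 bases before the start, 5′ to 3′ on the plus strand of GRCh38.p14, with CpG dinucleotides in capitals. They lie at chr1:169106440-169106689 for *ATP1B1*, chr3:141876393-141876642 for *ATP1B3*, chr17:7646377-7646626 for *ATP1B2* and chrX:120361839-120362088 for *ATP1B4*, upstream of the first exon of each gene.
ATP1B1: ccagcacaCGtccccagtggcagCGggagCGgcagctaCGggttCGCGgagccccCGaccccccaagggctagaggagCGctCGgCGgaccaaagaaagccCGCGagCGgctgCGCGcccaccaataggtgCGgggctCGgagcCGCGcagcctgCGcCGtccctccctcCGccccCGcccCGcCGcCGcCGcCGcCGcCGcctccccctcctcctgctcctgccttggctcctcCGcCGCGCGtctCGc
ATP1B3: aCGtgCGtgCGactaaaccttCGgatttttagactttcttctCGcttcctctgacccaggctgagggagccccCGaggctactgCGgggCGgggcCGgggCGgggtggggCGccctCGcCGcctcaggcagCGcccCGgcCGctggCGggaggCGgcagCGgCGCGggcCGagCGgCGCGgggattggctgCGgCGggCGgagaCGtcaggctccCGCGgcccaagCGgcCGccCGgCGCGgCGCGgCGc
ATP1B2: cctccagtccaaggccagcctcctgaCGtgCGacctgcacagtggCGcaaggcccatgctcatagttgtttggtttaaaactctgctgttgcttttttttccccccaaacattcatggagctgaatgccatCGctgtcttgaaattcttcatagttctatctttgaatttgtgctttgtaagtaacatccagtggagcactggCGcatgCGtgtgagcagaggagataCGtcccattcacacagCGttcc
ATP1B4: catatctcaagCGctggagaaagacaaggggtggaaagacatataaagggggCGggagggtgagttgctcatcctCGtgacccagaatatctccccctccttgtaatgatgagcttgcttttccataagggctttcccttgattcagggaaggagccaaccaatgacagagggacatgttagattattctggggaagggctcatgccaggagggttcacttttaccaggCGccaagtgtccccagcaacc
The windows of *ATP1B1* and *ATP1B3* held 35 and 39 CpG dinucleotides, and those of *ATP1B2* and *ATP1B4* held 8 and 4. The plasma membrane calcium ATPases went the other way. The window of *ATP2B4*, the member of that family above background on all arrays, held 8. Those of *ATP2B1*, *ATP2B2* and *ATP2B3* held 39, 24 and 20. Whether CpG content bears on the calls was not tested.

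Of the 4 plasma membrane calcium ATPases, which expel calcium from the cell, *ATP2B4* was above background, at 7.98, 8.34 and 7.99 in cultures 1, 2 and 3 (8.10 ± 0.21, SD, n = 3). This rests on 1 of its 3 probe sets. Another read 6.72, 6.98 and 6.77, above the threshold on 1 array, and the third read 5.25, 5.36 and 5.17. Taken as the mean over its probe sets, *ATP2B4* was not above background. *ATP2B1*, the other widely expressed pump, read 6.71, 6.53 and 7.14 and exceeded the threshold only in culture 3. Culture 3 had the highest value at each of its 3 probe sets. *ATP2B2*, known from neurons and hair cells, read 6.88, 7.13 and 7.23, above the threshold in cultures 2 and 3. Its other probe sets, with means of 5.19 and 4.70, were at background throughout. *ATP2B3*, a neuronal pump, read 5.35, 4.62 and 4.87 and was at background on every array. Without culture 1 *ATP2B2* counted as above background.

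Of the 4 phosphate cotransporters 1 was above background, beside 47.1% of all genes. *SLC20A1*, a sodium-dependent phosphate carrier of most cells that also serves as a receptor for some retroviruses, read 9.95, 10.27 and 9.93 in cultures 1, 2 and 3 (10.05 ± 0.19, SD, n = 3). Its paralog *SLC20A2* read 5.65, 5.81 and 5.39. *SLC34A1*, the phosphate carrier of the renal proximal tubule, had a level of 6.40 ± 0.09, and *SLC34A2*, known from lung and intestine, 4.88 ± 0.18. None of these 3 exceeded the threshold on any array.

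The cation-chloride cotransporters (SLC12) held 4 genes above background of 8, near the share of 47.1% over all genes. *SLC12A2*, the sodium-potassium-chloride cotransporter that loads secretory epithelia with chloride, read 8.91, 8.37 and 8.52 in cultures 1, 2 and 3 (8.60 ± 0.28, SD, n = 3). Its kidney counterpart *SLC12A1* read 3.58, 3.62 and 3.54. The thiazide-sensitive sodium-chloride cotransporter *SLC12A3*, also of the kidney, had a level of 5.99 ± 0.09. Thus the widely expressed loader was above the thresholds on every array and both kidney forms were below them. Among the potassium-chloride cotransporters, which let chloride out of the cell, *SLC12A7* read 8.19, 7.95 and 7.75 (7.96 ± 0.22). *SLC12A4* read 7.28, 7.15 and 7.08, above each threshold by 0.23 to 0.27 log2 units, the smallest mean margin of the 9 genes above background. Only 1 of its 4 probe sets was above background, and another (6.97, 6.84 and 6.87) exceeded the threshold in culture 3. The neuronal form *SLC12A5* had a level of 5.48 ± 0.01. *SLC12A9*, a member reported to bind other cotransporters, read 7.28, 7.51 and 7.56 (7.45 ± 0.15), and *SLC12A8* had a level of 5.95 ± 0.09, at background on every array.

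The starts of the sodium-potassium-chloride pair are shown in the same way, since they were the most and the least CpG-rich of the family's promoters. The window of *SLC12A2*, with 40 CpG dinucleotides, lies at chr5:128083516-128083765, and that of *SLC12A1*, with 1, lies at chr15:48206052-48206301 (GRCh38.p14, plus strand, 5′ to 3′, CpG in capitals).
SLC12A2: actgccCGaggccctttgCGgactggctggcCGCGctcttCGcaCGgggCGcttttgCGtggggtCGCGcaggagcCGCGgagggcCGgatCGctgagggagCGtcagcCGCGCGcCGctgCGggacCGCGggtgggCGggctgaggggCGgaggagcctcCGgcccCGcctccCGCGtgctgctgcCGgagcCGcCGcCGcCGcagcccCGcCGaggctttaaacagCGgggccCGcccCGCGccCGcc
SLC12A1: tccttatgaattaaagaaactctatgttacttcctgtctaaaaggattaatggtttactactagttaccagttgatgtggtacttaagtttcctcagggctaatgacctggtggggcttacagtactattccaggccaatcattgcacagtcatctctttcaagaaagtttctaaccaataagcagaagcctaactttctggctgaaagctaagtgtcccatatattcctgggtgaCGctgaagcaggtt

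The bicarbonate transporters (SLC4) included 1 gene above background of 8, beside 47.1% of all genes. It was the anion exchanger *SLC4A2*, which trades chloride for bicarbonate in most cells. It read 7.57, 7.68 and 7.81 in cultures 1, 2 and 3 (7.69 ± 0.12, SD, n = 3). *SLC4A1*, the anion exchanger of red cells, read 7.07, 6.77 and 6.85 and passed the thresholds in cultures 1 and 3, by at most 0.04 log2 units. Without culture 2 it counted as above background. *SLC4A3*, the exchanger of heart and brain, had a level of 6.22 ± 0.11. The sodium-coupled carriers were at background on every array at every probe set. *SLC4A4*, the electrogenic sodium-bicarbonate cotransporter known for its role in the corneal endothelium, had 4 probe sets with means between 3.72 and 6.07. *SLC4A7*, an electroneutral carrier, had 4 with means between 3.63 and 5.73. *SLC4A5*, *SLC4A8* and *SLC4A10* had levels of 5.59 ± 0.26, 4.83 ± 0.10 and 3.71 ± 0.08.

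The sodium-proton exchangers (SLC9), which expel acid, were represented by 4 genes, and none exceeded the threshold on any array. Of all genes 47.1% were above background on all 3. *SLC9A2* and *SLC9A3*, known from the apical membrane of kidney and gut, had levels of 5.13 ± 0.22 and 5.52 ± 0.10 (SD, n = 3). *SLC9A5*, of the brain, had a level of 6.35 ± 0.07, and *SLC9A8*, a Golgi and apical form, 6.18 ± 0.19.

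The SLC26 anion transporters held the gene that varied most between the cultures. *SLC26A2*, the sulfate carrier needed for sulfated proteoglycans, read 6.49, 8.08 and 7.99 in cultures 1, 2 and 3. Cultures 2 and 3 were above the threshold by more than 1 log2 unit and culture 1 was below it. Its range of 1.59 log2 units was reached by 16 of all probe sets (0.0839%). Culture 1 minus the mean of the others was -1.54. Its adjusted p by the one-sided limma test was 0.0517, and without culture 1 it counted as above background. A single probe set of the gene was measured, so the difference has no second reading, and with 1 array per culture it could not be tested. The other members were at background on every array: the sulfate and oxalate carrier *SLC26A1* at 5.84 ± 0.25 (SD, n = 3), the intestinal chloride exchanger *SLC26A3* at 4.01 ± 0.04, pendrin (*SLC26A4*) at 3.83 ± 0.19 and the pseudogene *SLC26A10P* at 5.71 ± 0.18.

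The exchangers that use sodium to expel calcium were mostly at background. *SLC8A1*, the exchanger of the heart and many other tissues, read 6.52, 6.67 and 6.25 at the brightest of its 3 probe sets, and *SLC8A2*, of the brain, had a level of 5.57 ± 0.15 (SD, n = 3). *SLC24A1*, the potassium-dependent exchanger of rods, read 6.99, 7.03 and 7.16, just under the threshold in culture 1 (by 0.06) and above it in the others. Its other 3 probe sets had means between 4.51 and 5.97. *SLC24A2* and *SLC24A3* had levels of 6.01 ± 0.23 and 4.64 ± 0.26. Among the ATP2B, SLC8 and SLC24 genes, *ATP2B4* was thus the only one called on all arrays (47.1% of all genes were).

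**Figure D2:**
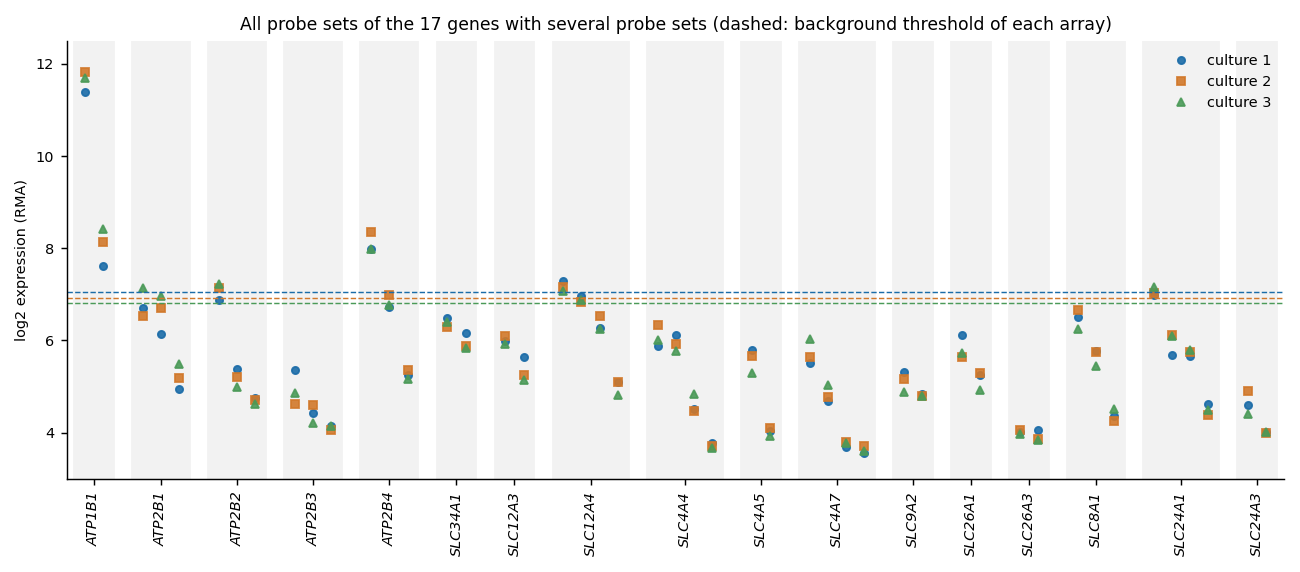
Log2 expression (vertical axis) at every probe set of the 17 genes with several probe sets, 1 point per culture, with probe sets of a gene ordered by mean inside a grey band and the array thresholds dashed. *ATP1B1* is the gene with all its probe sets above the lines, and *ATP2B4* and *SLC12A4* have 1 probe set above them.

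How a gene was read depended on the probe set. Of the 17 genes with several probe sets, 14 had none above background, *ATP1B1* had both above, and *ATP2B4* and *SLC12A4* had 1 above beside others that were not. The means of the probe sets of a gene differed by a median of 1.59 log2 units, from 0.09 for *SLC26A3* to 3.58 for *ATP1B1*. At its dimmer probe set *ATP1B1* read 7.61, 8.14 and 8.41, again lowest in culture 1. Of the 72 probe sets 31 carry the suffix _s_at or _x_at, by which the manufacturer marks those that can bind several transcripts. Without them 5 of the 34 genes still measured were above background, *ATP1B3*, *SLC12A2*, *SLC12A7*, *SLC20A1* and *SLC4A2* (38% of all genes were). *ATP1B1* and *SLC12A9* then had no probe set, and *ATP2B4* and *SLC12A4* were measured but not above background.

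The spread between cultures was read over all probe sets, most of them at background, where low values are compressed. The median SD of the 72 probe sets over the cultures was 0.167, and 0.143 over all probe sets. A range of 0.5 log2 units or more was seen at 10 of the 72 (15.9% of all probe sets), and one of 1 unit or more at 1, that of *SLC26A2* (1.28% of all). In 5 of the 10 culture 1 was the one apart. The same share over all probe sets was not computed, and culture 1 stood apart over the whole array. This count is therefore not read as a trait of these genes. Among the 9 genes above background the range ran from 0.20 for *SLC12A4* to 0.54 for *SLC12A2*. Culture 1 was the lowest in 4 of the 9 and the highest in 4 others, and lay between in 1. Those highest in culture 1 were *SLC12A2*, *SLC12A4*, *SLC12A7* and *ATP1B3*. The same shares over all genes above background were not computed, so these counts are not read as a trait of these genes either. With 3 cultures no relation to the electrical resistance could be tested.

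**Figure D3:**
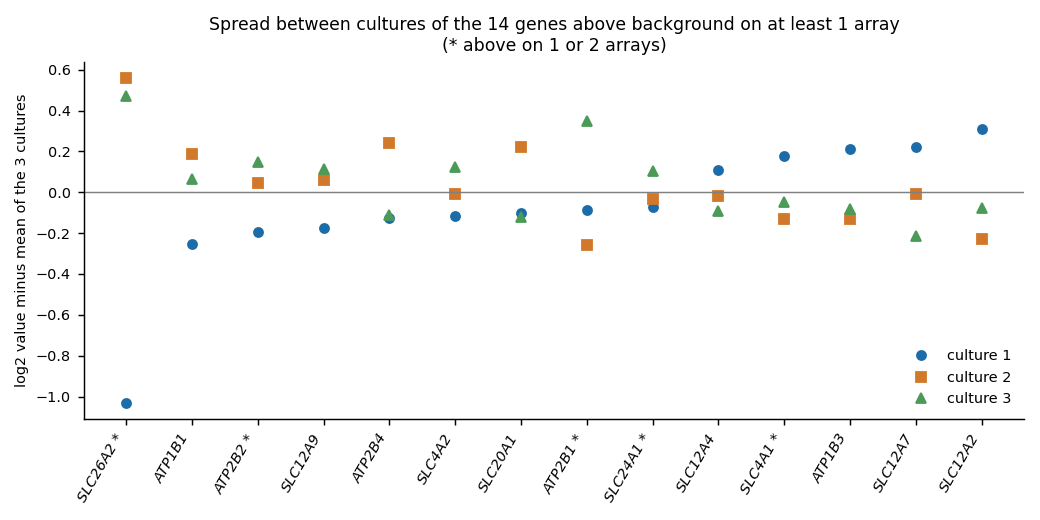
Log2 value of each culture minus the mean of the 3 cultures (vertical axis) for the 14 genes above background on at least 1 array, ordered by the difference of culture 1 from the others. *SLC26A2* at the left stands apart, with culture 1 more than 1 log2 unit below its mean, and the 9 genes above background on all arrays range over 0.20 to 0.54 log2 units.

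Of 53 measured partners of these transporters 22 were above background, beside 47.1% of all genes, and the difference was not tested. The FXYD proteins are small subunits that tune the sodium-potassium ATPase. *FXYD3* (9.78 ± 0.40, SD, n = 3) and *FXYD5* (8.92 ± 0.18) were above background, and the other 4 measured, *FXYD1*, *FXYD2*, *FXYD6* and *FXYD7*, were not on any array. Of 15 kinases and scaffolds 10 were above background (47.1% of all genes were). The WNK kinase pathway, which senses chloride and sets SLC12 activity by phosphorylation, was represented by *WNK1* (8.43, 8.71 and 8.70 in cultures 1, 2 and 3), by *OXSR1* (7.86, 8.91 and 8.75) and *STK39* (7.38, 7.28 and 7.54), the kinases it activates, and by their adaptor *CAB39* (9.61, 9.82 and 9.88). *OXSR1* was lowest in culture 1, with an SD of 0.56. The scaffolds *NHERF1* (8.78 ± 0.11) and *EZR* (9.04 ± 0.24) and the transporter-binding *CHP1* (9.33 ± 0.31) and *AHCYL1* (9.70 ± 0.27) were above background too, as were *SGK1* and *NEDD4L*. *NHERF2*, *PDZK1*, *CHP2* and *TESC* were at background on every array.

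Of 19 measured sodium, chloride and potassium channel genes 7 were above background, against 47.1% of all genes. *SCNN1A*, the alpha subunit of the epithelial sodium channel, read 10.42, 10.50 and 10.30 in cultures 1, 2 and 3, while its partners *SCNN1B* (5.43 ± 0.09, SD, n = 3) and *SCNN1G* (4.89 ± 0.22) were at background. The chloride-proton exchangers of endosomes and lysosomes, *CLCN3* (9.34 ± 0.23) and *CLCN7* (8.56 ± 0.23), the volume-regulated channel subunit *LRRC8D* (8.99 ± 0.25) and the potassium channels *KCNK1*, *KCNN4* and *KCNQ1* made up the rest. The chloride channels of secretory cells, *CFTR* (5.54 ± 0.14) and *ANO1* (4.05 ± 0.04), were at background on every array. Of 10 genes of calcium stores and entry 3 were above background, again beside 47.1% of all genes, namely the store pump *ATP2A2* (9.92 ± 0.23), the Golgi pump *ATP2C1* (7.87 ± 0.09) and the store channel *ITPR3* (9.83 ± 0.13). None of the 3 gastric and colonic proton pump genes exceeded the threshold on any array.

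**Figure D4:**
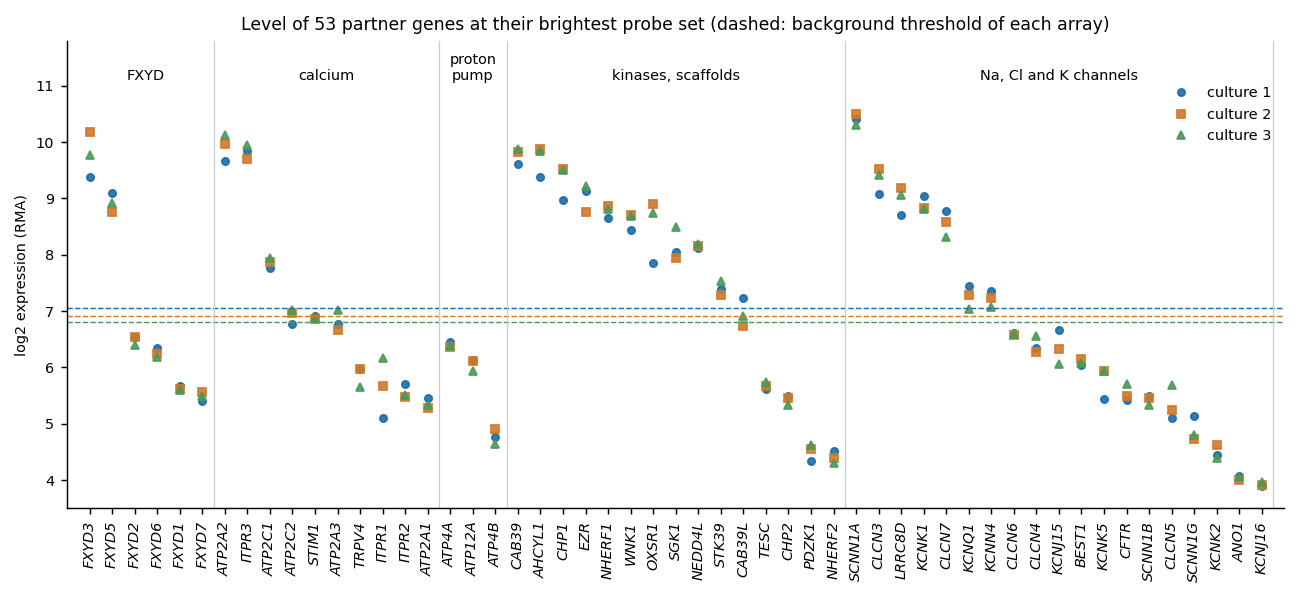
Log2 expression (vertical axis) of 53 partner genes in 5 lists at the brightest probe set, 1 point per culture, with the array thresholds dashed. *SCNN1A* lies above the lines and its partner subunits below them.

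The CpG content of the promoters was then counted for the whole set. In the 250 bases before the start, 38 of the 42 genes had a RefSeq sequence, with no entry used for *SLC4A1*, *SLC20A2*, *SLC24A3* and *SLC26A10P*. Where a gene had several starts the one with most CpG was taken. The 9 genes above background had a median of 28 CpG dinucleotides, and the 25 genes above on no array a median of 14. Over all genes with a promoter these medians were 24 and 15. The lowest of the 9 was *ATP2B4* with 8, and the next *SLC12A4* with 22. Several genes at background had as many, such as *SLC8A1* with 44 and *SLC9A3* with 38. The GC box, searched as GGGCGG and its complement CCGCCC, was found in 9 of the 9 and in 10 of the 25. Of all genes with the same calls 75.4% and 52.7% held it. Of the 38 genes 60.5% held it, against 65.4% of all genes with the start chosen in the same way. Without that choice of start it was in 42.6% of the 35116 promoters in the table. Genes with more starts had more windows to draw from, and a match of letters is not evidence that a factor binds.

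**Figure D5:**
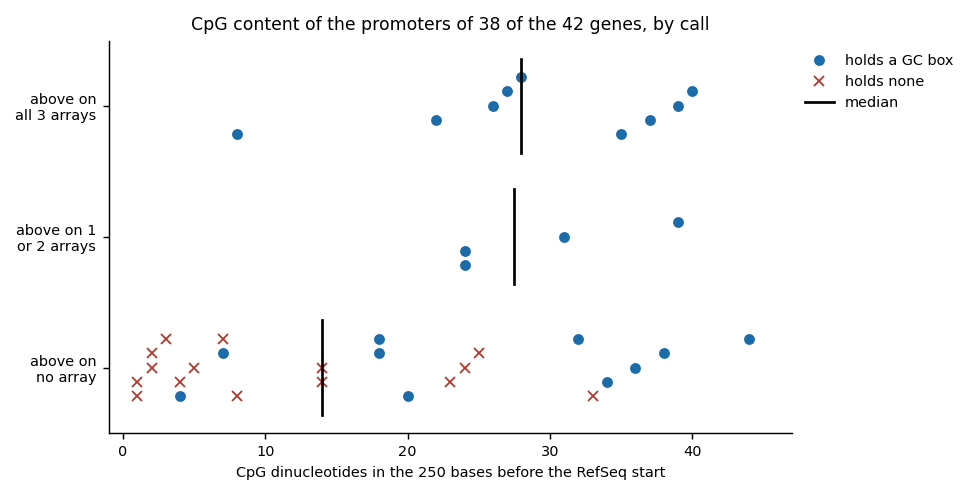
Number of CpG dinucleotides in the 250 bases before the RefSeq start (horizontal axis) for 38 genes, grouped by the number of arrays on which each was above background, with circles for windows that hold a GC box, crosses for those that do not, and a bar at the median. The medians are 28 for the 9 genes above on all arrays and 14 for the 25 above on none, with wide overlap.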

How the data were processed

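Affymetrix HG-U133A arrays measured the RNA of 3 iHCE cultures. The authors processed them by RMA in R 2.8.0, per the labels and the methods, and deposited log2 values for 22283 probe sets; low values are compressed toward background. The sources used here do not give whether tissue arrays shared the run. Probe sets were named through the platform annotation, with symbols updated through the RefSeq genes of GRCh38.p14. Of the probe sets 19071 named 1 gene, 1043 several, and 2169 were not listed. Each gene was read from its probe set of highest mean. The panel listed 68 genes of other tissues, of which 57 were measured and 2 were above their own threshold. The symbol *SLC4A1AP*, of another protein, was not taken as a family member. Calls and lists were compared by counts, without set tests. Fits used limma 3.58.1 in R 4.3.3, one-sided, Benjamini-Hochberg adjusted over all genes, and other steps used Python 3.11.15. There was 1 group, and no p-value between cultures could be had. The members, the panel and the lists were chosen with earlier results of these data known, and the promoter windows after the values were seen. Every member was eligible to be named. Of the partner lists, genes beyond the 3 with the highest values, and genes not above background, were named after their values were seen. A planned comparison of protein sequences was not run.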

Additional observations from a re-analysis of the deposited data

How the results depend on the processing

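The call was recomputed under 11 alternatives. *ATP1B3*, *SLC12A2*, *SLC12A7*, *SLC20A1* and *SLC4A2* were above background in all of them, *ATP1B1* in all where it was measured, and 29 genes were above in none. *SLC12A4* and *SLC12A9* were lost with the highest panel gene and with the panel median plus 3 scaled MADs, and *ATP2B4* and *SLC12A4* with the mean over probe sets and without _x_at and _s_at probe sets. The 90th percentile added *ATP2B2*, *SLC24A1* and *SLC4A1*, leaving out culture 1 added *ATP2B2*, *SLC24A1* and *SLC26A2*, and leaving out culture 2 added *SLC4A1*. Without _x_at and _s_at probe sets, where 34 genes were measured, 5 probe sets and 5 genes were above background (38% of all genes were). The median level was then 5.77 and the median SD 0.145. In the same setting 14 partner genes were above background, but how many partners were still measured was not counted. With the mean over probe sets the median level was 5.69, and with quantile normalization the median SD was 0.148. Leaving out each replicate gave a median level of 5.98 to 6.12 and a median SD, over 2 arrays, of 0.104 to 0.149. The number of genes whose probe sets differ in call was 2, and it was 4 with the 90th percentile, 1 with the highest panel gene, with the median plus 3 scaled MADs and with limma, 0 without _x_at and _s_at probe sets, and 2 to 4 without a replicate. The cause of these shifts was not tested. No paired analysis was possible because there is a single group. Signal near background limits the calls of genes close to the threshold, *SLC12A4* and *SLC12A9* among them.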
